A study of Mus musculus with 5 samples.

Results

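The glial cell line-derived neurotrophic factor (GDNF) family comprises 4 secreted ligands, GDNF (Gdnf), neurturin (Nrtn), artemin (Artn) and persephin (Pspn), 4 lipid-anchored co-receptors (Gfra1, Gfra2, Gfra3 and Gfra4) and the shared receptor tyrosine kinase RET (Ret). These 9 genes, carried by 23 RefSeq transcripts, were taken by symbol from the 25415 genes measured in the series. In textbook form, a ligand dimer is held by its preferred co-receptor (GDNF by GFRA1, neurturin by GFRA2, artemin by GFRA3, persephin by GFRA4), and the complex then brings RET molecules together and switches on their kinase. The pathway is known for guiding the ureteric bud in the kidney, for building the enteric nervous system, and for the self-renewal of male germline stem cells, which receive GDNF from somatic neighbours. In neurons, GFRA1 can also act without RET, together with the adhesion molecule NCAM1.

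RNA sequencing was performed on cultured primary mouse neural stem cells (NSCs, n = 2) and on STO cells (n = 3). The study isolated its NSCs from the cortex of mouse embryos. STO is a long-passaged line of SIM embryonic fibroblasts that is used as a feeder layer. Both cell types are labelled strain C57BL/6. The NSCs were at passages 5 to 8, grown as a monolayer in neural basal medium with 20 ng/ml EGF, 20 ng/ml basic FGF, heparin and B27. The STO cells were beyond passage 30 and were kept in high-glucose DMEM with 10% fetal bovine serum. GDNF is named in neither medium, but it was added to the medium of the female germline stem cells (FGSCs) of the same study, which were grown on mitotically inactivated STO feeders. FGSC RNA was not analysed here, and the STO samples are labelled as STO cells without mention of inactivation. STO is 1 cell line, and the labels do not say whether replicates were separate cultures, so p-values measure the spread between these samples, which may be technical. Cell type and medium went together and cannot be told apart.

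Values are FPKM (fragments mapped per kilobase of transcript, scaled to sequencing depth), summed over the transcripts of a gene. The width of the deposited FPKM intervals implied 15223341 to 21952753 fragments per sample in STO and 20587283 and 22271895 in NSCs, figures that are approximate. The cell labels were checked against markers. The NSC markers Sox2, Nes, Pax6, Olig2 and Fabp7 were each at 1 FPKM or more in NSCs and below it in STO cells, and the 7 fibroblast markers were each at 1 FPKM or more in STO cells, where they summed to 1440 to 1560 FPKM against 10.7 to 11.1 in NSCs. The NSC samples also held markers of other neural cell types. Their astrocyte markers (Gfap, Aqp4 and Aldh1l1) summed to 64.4 to 64.5 FPKM against 0.15 to 0.218 in STO, and their 4 oligodendrocyte lineage markers summed to 94.1 to 94.6 FPKM (349 to 360 in STO, nearly all Pdgfra, which fibroblasts also express). Of the 4 neuron markers, 3 were at 1 FPKM or more in NSCs and 1, Tubb3, in STO (7.84 to 8.57 FPKM, against 9.25 and 8.14 in NSCs). The smooth muscle markers Acta2 and Tagln summed to 61.5 to 68.1 FPKM in STO and to 2.06 to 2.09 in NSCs. Microglia and endothelium markers were below 1 FPKM in every sample. The part of these cell types in the results was not tested. In such bulk samples, fewer cells of a type and less RNA per cell cannot be told apart.

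The results involve the start sites of Gdnf and the alternative transcripts of Gfra1, so their sequences are shown first. The Gdnf locus (mm9, chr15:7760048-7787580, plus strand) carries 3 annotated start sites in the deposited rows. The window shown for Gdnf is the 250 bases just before its most upstream start, read from mm9. The 250 bases before the single Gfra2 start (chr14:71289664-71289913, plus strand) are given beside it, since Gfra2 differed in the opposite direction. Capitals mark matches to the TATA box (searched as TATAAA), to the CCAAT box (by those letters), to letters bound by SP1-family factors (GGGCGG) or to those bound by AP-1 (TGACTCA), each searched on both strands.
Gdnf, before the start of NM_010275 and NM_001301332 (chr15:7759798-7760047, plus strand): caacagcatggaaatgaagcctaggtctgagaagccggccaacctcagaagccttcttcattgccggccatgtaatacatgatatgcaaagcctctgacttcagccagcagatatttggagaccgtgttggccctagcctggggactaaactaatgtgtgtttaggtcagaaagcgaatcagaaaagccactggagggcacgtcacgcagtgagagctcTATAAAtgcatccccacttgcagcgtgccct
Gfra2, before the start of NM_008115, NM_001302094 and NM_001302095 (chr14:71289664-71289913, plus strand): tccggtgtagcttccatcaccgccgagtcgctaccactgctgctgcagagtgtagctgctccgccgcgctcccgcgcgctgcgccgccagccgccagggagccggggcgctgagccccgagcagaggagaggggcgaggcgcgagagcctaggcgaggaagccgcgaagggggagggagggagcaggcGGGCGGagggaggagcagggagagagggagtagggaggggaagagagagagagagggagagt

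The Gdnf window held 1 TATAAA, which began 31 bases before the start, and 7 CpG dinucleotides. TATAAA was present in 12.4% of 32851 windows of the same length from the RefSeq promoter table (GRCm38.p6). The Gfra2 window held 1 GGGCGG, letters present in 32.7% of all windows. The Gdnf window read from mm9 was identical to a Gdnf window of that promoter table. The Gfra2 window, like that of Ret, was not identical to any listed there for its gene. The windows before the other Gdnf starts, including that of NM_001301357, are not described or compared here, and Gfra3 was left out. Among the windows compared for 8 of the members, that of Gfra2 had the most CpGs, 24 of them. It was 71.2% G or C, and 88.0% of all windows held fewer CpGs. CCAAT (33.8% of all windows) and TGACTCA (4.5%) were found in neither window. A match describes letters only, and no binding was measured here.

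For Gfra1 (chr19:58310071-58529888, minus strand), the GENCODE M1 annotation of mm9 holds 6 long transcripts. Of these, 5 contain a 15-base exon at chr19:58467063-58467077, and 1 (Gfra1-004) joins the exon at chr19:58526459-58526542 directly to that at chr19:58374732-58375068. Both forms are shown across the junction on the sense strand, with 20 bases on either side. In the first line capitals mark the 15-base exon, and in the second they mark the last 4 bases before the direct junction.
Gfra1 with the 15-base exon: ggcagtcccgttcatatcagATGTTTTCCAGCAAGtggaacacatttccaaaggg
Gfra1 without the 15-base exon: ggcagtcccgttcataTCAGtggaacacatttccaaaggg

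The study used different Gfra1 primer pairs for FGSCs and for spermatogonial stem cells (SSCs), and these were placed on the same transcripts. In the FGSC reverse primer, capitals mark the 4 bases upstream of the direct junction.
FGSC forward primer: gtctctctacaactgccgct
FGSC reverse primer: ctttggaaatgtgttccaCTGA
SSC forward primer: ggaggccttgaagcagaagt
SSC reverse primer: aacgggactgcccggaata

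The FGSC reverse primer crossed the junction and was found exactly in 1 of 6 long transcripts, the one without the 15-base exon, where the pair spans 191 bp. Against a transcript with the exon, 20 of its 22 bases were identical at the corresponding place. The bases that differed were the last ones at the 3' end of the primer. The SSC pair lay within exons shared by all 6 transcripts and spans 183 bp in both forms. As annotated, an exact match to the FGSC pair therefore exists in one Gfra1 form and to the SSC pair in both. Amplification was not measured here. The deposited rows name RefSeq transcripts without their exons, so the forms above are not assigned to the RefSeq transcripts below.

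Among the ligands, Gdnf was the only one above 1 FPKM in any sample. GDNF supports dopaminergic and motor neurons and is the self-renewal factor of SSCs. Gdnf was at 0.0377 and 0.102 FPKM in the 2 NSC samples and at 7.88, 8.01 and 7.93 FPKM in the 3 STO samples. Every STO sample was far above both NSC samples, and the 3 STO values lay within a narrow band (7.94 ± 0.065 FPKM, SD, n = 3). The NSC values rested on about 4 and 9 fragments, against 492, 510 and 666 in STO. As a difference of log2(FPKM + 1), a scale on which the change of a low gene comes out too small, Gdnf was higher in STO by 3.06 (SE 0.05, 95% confidence interval 2.94 to 3.19, limma adjusted p = 2.45e-08). The ratio of mean FPKM was 114, with its lower mean set by those few fragments. In STO cells, 70.8 to 71.4% of all genes had a lower FPKM than Gdnf. That base includes genes listed at 0, which made up 41.4 to 42.5% of all genes per STO sample. Gdnf was thus not among the most abundant transcripts.

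**Figure D1:**
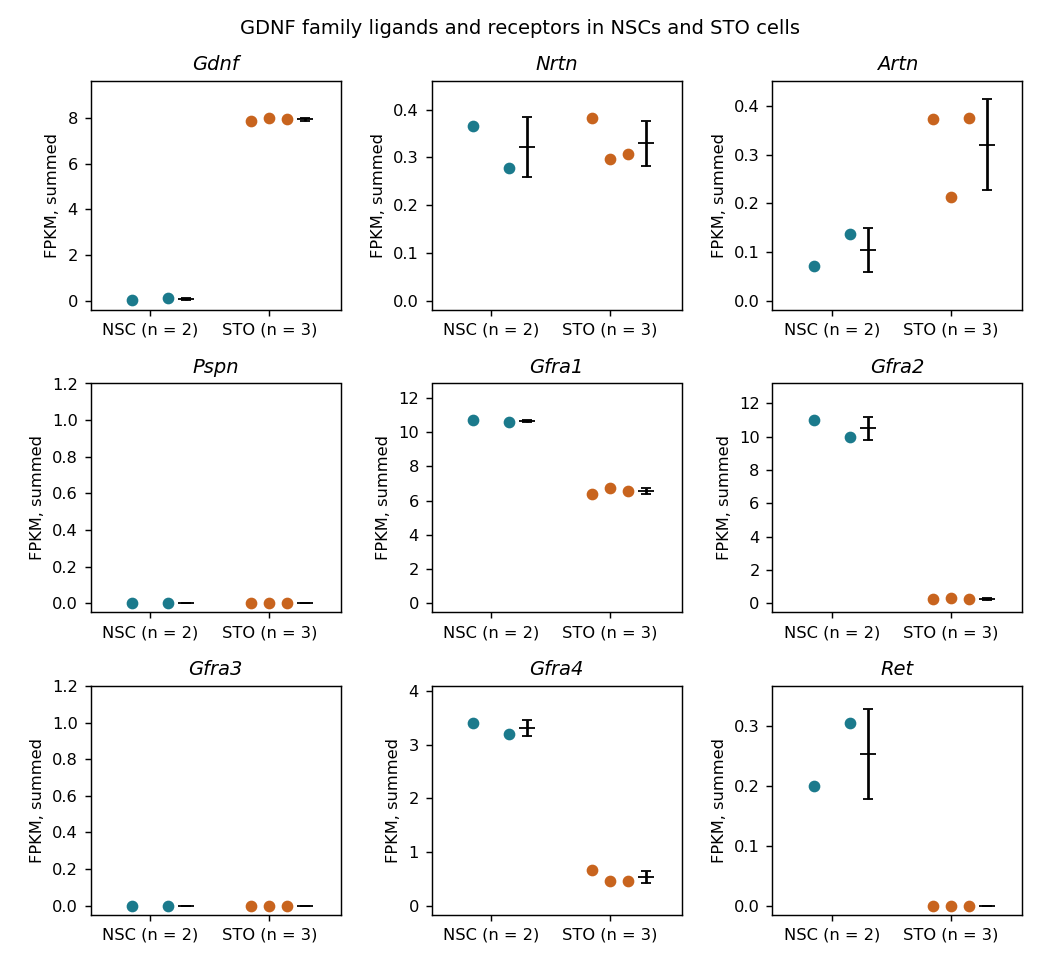
Summed FPKM (vertical axis, linear, with its own range in each panel) of the 9 GDNF family genes in each NSC (blue-green, n = 2) and STO (orange, n = 3) sample. Points are samples, and black bars show the mean and SD. Gdnf lay between 7.88 and 8.01 FPKM in STO and at or below 0.102 in NSCs, Gfra2 and Gfra4 were lower in STO, and Pspn and Gfra3 were listed at 0 throughout.

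The deposited estimates split the STO signal of Gdnf between transcripts of the most upstream and the most downstream start. NM_010275 was at 5.58, 3.74 and 3.76 FPKM in the 3 STO samples and listed at 0 in both NSC samples. NM_001301357, which begins at the most downstream start, was at 1.39, 3.35 and 4.17 FPKM in STO and at 0.00741 and 0.0445 FPKM in NSCs. Thus the downstream-start transcript was assigned 17.7% of Gdnf in STO replicate 1, 41.8% in replicate 2 and 52.6% in replicate 3. The gene total stayed between 7.88 and 8.01 FPKM. These transcripts overlap, and fragments were shared out between them by the authors' software. The shares are therefore estimates, and use of the starts was not tested. NM_001301332 was at 0.904 and 0.917 FPKM in STO replicates 1 and 2 and listed at 0 in replicate 3. NM_001301333, with a start between the others, was listed at 0 in every sample. Fitted singly among 16257 transcripts, of which 77.1% were called, NM_010275 was higher in STO by 2.41 (SE 0.17, adjusted p = 0.000214). NM_001301357 was higher by 1.88 (SE 0.36, adjusted p = 0.0071).

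Nrtn and Artn were below 1 FPKM in both cell types, and Pspn was listed at 0. Neurturin, which supports parasympathetic and enteric neurons, was measured through Nrtn (chr17:56890746-56896971) at 0.366 and 0.278 FPKM in NSCs and at 0.383, 0.297 and 0.307 FPKM in STO. The groups overlapped, and in a fit without a filter on low values the difference was 0.01 (95% confidence interval -0.11 to 0.12, adjusted p = 0.888). Artn (chr4:117598765-117602368), which encodes artemin, a factor for sympathetic and sensory neurons, was at 0.0719 and 0.137 FPKM in NSCs and at 0.373, 0.213 and 0.376 FPKM in STO. The 3 STO values lay above both NSC values but rested on about 12, 11 and 24 fragments, against about 3 and 10 in NSCs. In the same unfiltered fit Artn was higher in STO by 0.26 (95% confidence interval 0.09 to 0.43, adjusted p = 0.0181), where 70.4% of 17725 genes were called. Pspn (chr17:57138736-57139528) was listed at 0 in all 5 samples. It shares its locus with Alkbh7, which was at 10.8 to 15.6 FPKM. No estimate of a member was marked as failed. A listed 0 is still not read here as absence, since the widely used genes Alkbh1 and Amd1 were also listed at 0 in both NSC samples.

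The 4 ligands together summed to 8.64, 8.52 and 8.61 FPKM in STO and to 0.476 and 0.517 FPKM in NSCs. In STO, Gdnf made up 91.2 to 94.0% of that sum. In NSCs the largest part was Nrtn, with 76.9 and 53.8%.

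The 3 co-receptors that could be tested differed in the opposite direction from Gdnf. Of the 9 members, 4 reached a mean of 1 FPKM in either cell type and entered the main fit over 12293 genes, namely Gdnf, Gfra1, Gfra2 and Gfra4. All 4 passed an adjusted p of 0.05, with Gdnf higher and the 3 co-receptors lower in STO. Calls were general in this comparison: 85.6% of all tested genes were called, 41.9% higher and 43.7% lower in STO, and in 89.9% the samples of one cell type all lay above those of the other. A call by itself therefore does not set a member apart, and sizes are given beside each. A larger absolute difference than that of Gdnf was found in 8.4% of the tested genes, against 7.8% for Gfra2, 24.1% for Gfra4 and 56.3% for Gfra1. With a pseudocount of 0.1 in place of 1, the differences were 5.59 for Gdnf, -4.88 for Gfra2 and -2.45 for Gfra4, so the order of Gdnf and Gfra2 depends on the pseudocount.

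Gfra1, the GDNF-preferring co-receptor and a marker of undifferentiated spermatogonia, was at 10.7 and 10.6 FPKM in NSCs and at 6.37, 6.76 and 6.55 FPKM in STO. The groups did not overlap, and each value rested on at least 427 fragments. Gfra1 was lower in STO, with a difference (STO minus NSC) of -0.62 on the log2(FPKM + 1) scale (SE 0.05, 95% confidence interval -0.75 to -0.49, adjusted p = 4.76e-05), a 1.62-fold difference of means. This was smaller than the median absolute difference of all tested genes, 0.74. Gdnf and Gfra1 were both above 6 FPKM in the same STO samples.

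The Gfra1 difference was seen in 1 of its 2 coding transcripts. NM_010279 was at 6.05 and 6.27 FPKM in NSCs and at 1.87, 3.05 and 1.58 FPKM in STO. NM_001285457 was at 4.61 and 4.32 FPKM in NSCs and at 4.50, 3.71 and 4.97 FPKM in STO, so its groups overlapped, and the noncoding NR_104342 was listed at 0. As a share of the gene, NM_001285457 took 43.3 and 40.8% in NSCs and 70.6, 54.9 and 75.9% in STO. Fitted singly, NM_010279 was lower in STO (-1.20, SE 0.21, 95% confidence interval -1.77 to -0.64, adjusted p = 0.00544), whereas NM_001285457 did not pass (-0.03, 95% confidence interval -0.34 to 0.29, adjusted p = 0.847). Among transcripts, 77.1% of 16257 were called. The difference between the 2 transcripts was not itself tested, and both begin at the same annotated base, so fragments were shared out between them by the authors' software.

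**Figure D2:**
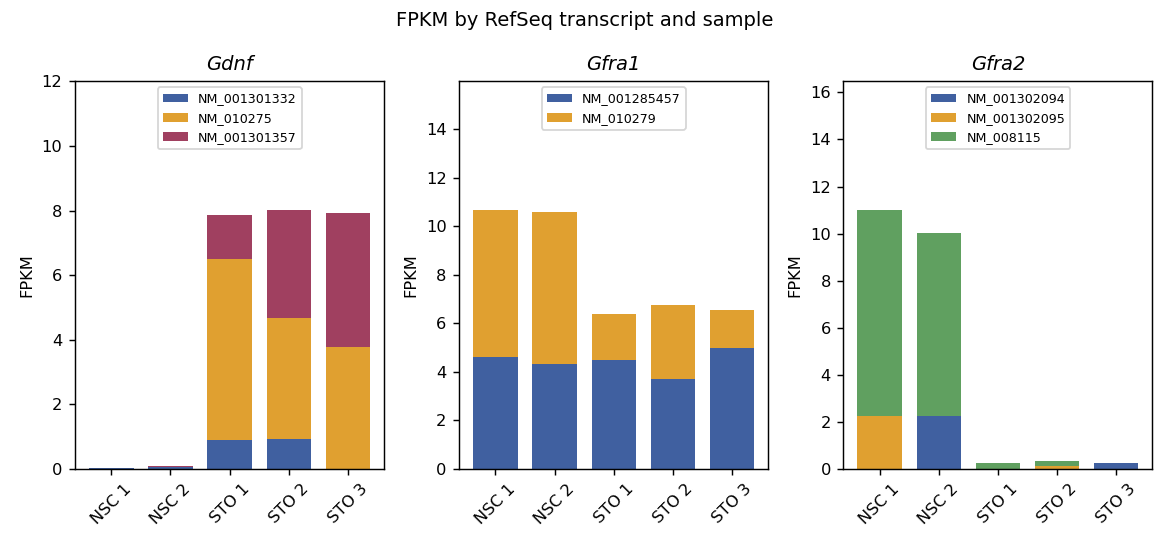
FPKM (vertical axis, linear from 0) of Gdnf, Gfra1 and Gfra2 in each sample (horizontal axis), stacked by RefSeq transcript, with transcripts listed at 0 in every sample left out. Gdnf totals were alike in the 3 STO samples, while the share assigned to NM_001301357 ran from 17.7 to 52.6%. The lower Gfra1 total in STO was seen in NM_010279 and not in NM_001285457. Fragments were shared out between overlapping transcripts by the authors' software.

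Gfra2, the neurturin co-receptor, was at 11.0 and 10.0 FPKM in NSCs and at 0.242, 0.315 and 0.229 FPKM in STO. Both NSC samples were far above all STO samples, whose values rested on about 18, 17 and 24 fragments. It was lower in STO, with a difference (STO minus NSC) of -3.19 (SE 0.06, 95% confidence interval -3.34 to -3.04, adjusted p = 4.19e-08), and the means differed 40.1-fold. The main transcript, NM_008115, was at 8.75 and 7.81 FPKM in NSCs and at 0.242, 0.181 and 0 FPKM in STO, and by itself differed by -3.03 (SE 0.12, adjusted p = 3.06e-05). The remainder was placed on NM_001302095 in NSC replicate 1 (2.24 FPKM) and on NM_001302094 in NSC replicate 2 (2.23 FPKM). Each of these was listed at 0 in the other NSC replicate, and neither passed when fitted singly (adjusted p = 0.223 and 0.249).

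Gfra4 (chr2:130865368-130868824, minus strand), the persephin co-receptor, was at 3.41 and 3.20 FPKM in NSCs and at 0.663, 0.461 and 0.469 FPKM in STO. The groups did not overlap. It was lower in STO, with a difference (STO minus NSC) of -1.49 (SE 0.07, 95% confidence interval -1.67 to -1.32, adjusted p = 3.13e-06), a 6.22-fold difference of means. Between 68.6 and 100% of it per sample was NM_001136063, which begins at the upstream of 2 annotated starts, and both transcripts of the downstream start were listed at 0. Gfra3, the artemin co-receptor, on chromosome 18, was listed at 0 in all 5 samples.

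**Figure D3:**
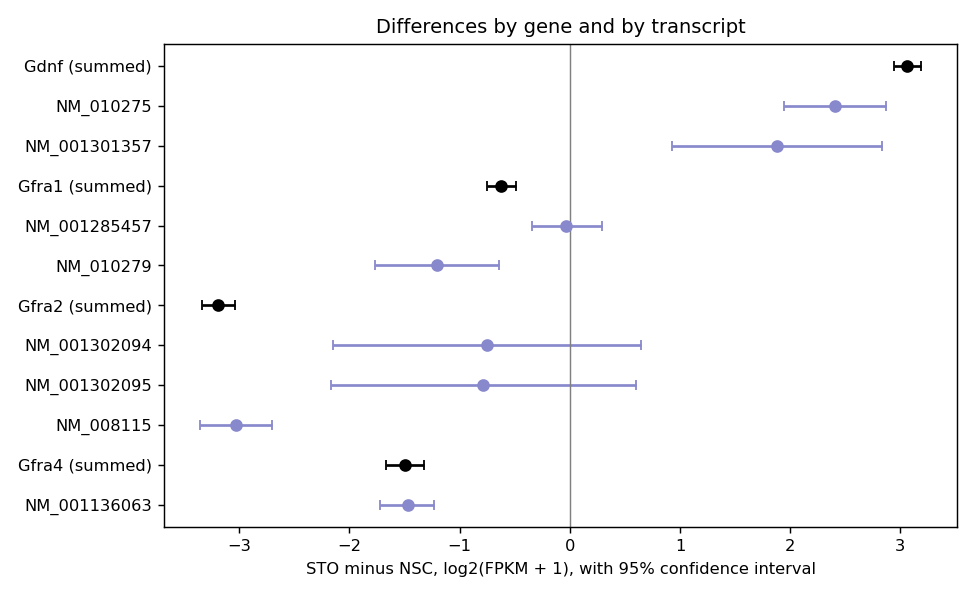
STO minus NSC difference in log2(FPKM + 1) (horizontal axis) for the 4 members in the main fit (black) and for their transcripts fitted singly (blue), with limma 95% confidence intervals as bars. The interval of Gfra1 NM_001285457 (-0.34 to 0.29) and those of 2 Gfra2 transcripts span 0.

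Ordered by mean FPKM, the NSC co-receptors were Gfra1 (10.6 ± 0.046, SD, n = 2), Gfra2 (10.5 ± 0.67), Gfra4 (3.30 ± 0.15), with Gfra3 listed at 0. Gfra1 and Gfra2 did not differ beyond their spread. In STO the order was Gfra1 (6.56 ± 0.20, n = 3), Gfra4 (0.531 ± 0.11), Gfra2 (0.262 ± 0.046), again with Gfra3 listed at 0. The co-receptor sum was 25.1 and 23.8 FPKM in NSCs and 7.28, 7.54 and 7.25 FPKM in STO, where Gfra1 made up 87.6 to 90.4% of it.

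Ret (chr6:118101766-118147762, minus strand), the signalling subunit of the family, was at 0.200 and 0.306 FPKM in NSCs, on about 26 and 46 fragments, and was listed at 0 in all 3 STO samples. Both NSC samples were above every STO sample, yet Ret did not reach the 1 FPKM minimum. In the unfiltered fit, where 70.4% of 17725 genes were called, Ret was lower in STO. The difference (STO minus NSC) was -0.32 (95% confidence interval -0.42 to -0.23, adjusted p = 0.000752). The STO values, all listed at 0, add no spread of their own to this interval. No fold is given against a group listed at 0. The NSC signal was divided between NM_009050, at 0.105 and 0.170 FPKM, and NM_001080780, at 0.0956 and 0.136 FPKM. In NSCs, Gfra1 and Gfra2 were at 10.0 to 11.0 FPKM beside a kinase subunit below 1 FPKM. In STO cells the ligand was above 7 FPKM, Gfra1 above 6 FPKM, and the kinase subunit listed at 0.

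Genes with the most similar levels were sought as those with the smallest Euclidean distance in log2(FPKM + 1) over the 5 samples. For Gdnf these were Nipal1 (distance 0.145), Birc3 (0.153) and Tead4 (0.163). For Gfra1 they were Dusp16, Phactr4 and Dhdds, at 0.0641 to 0.115. Pde9a, Dmrta2 and Dchs1 lay nearest to Gfra2, at 0.193 to 0.241, and Eva1c, Casp1 and Unc13b nearest to Gfra4, at 0.236 to 0.254. With 2 groups, any gene of like level in both cell types has a small distance.

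Proteins that bind GDNF or resemble its co-receptors were examined next, in a list that also holds Gdf15, the ligand of a GFRA-related receptor. Of the 7 listed genes, 6 were tested. Of these, 1 was higher and 5 lower in STO, beside 41.9% higher and 43.7% lower over all tested genes. The 5 include Gdf15 (-1.19). The median difference of the 6, with Gdf15 included, was -1.71, against -0.02 over all tested genes. Gas1, a GFRA-related membrane protein that can bind RET, was the one higher in STO, at 360, 332 and 323 FPKM against 37.9 and 39.1 in NSCs (3.10, SE 0.07, adjusted p = 6.74e-08). Sdc3, a heparan sulfate proteoglycan that can bind GDNF, was at 150 and 162 FPKM in NSCs and at 4.36, 4.29 and 4.59 in STO (-4.86, SE 0.06, adjusted p = 8.24e-09). Sorl1, a sorting receptor reported for GDNF and GFRA1, was at 5.56 and 5.54 FPKM in NSCs and at 0.0175, 0.0191 and 0.0144 in STO (-2.69, SE 0.04, adjusted p = 1.75e-08). Ncam1, the RET-independent partner of GFRA1, was also lower in STO, at 12.5, 13.1 and 12.0 FPKM against 65.0 and 60.3 FPKM (-2.23, SE 0.06, adjusted p = 2.39e-07). It is named outside the rule, for the role given above.

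Cytoplasmic adaptors and effectors that couple RET to its downstream kinases were divided. Of 23 genes, 21 were tested, 10 were higher and 10 lower in STO, so that 95.2% were called against 85.6% of all tested genes. Grb2, the adaptor that links receptors to RAS, did not pass (0.01, 95% confidence interval -0.12 to 0.14, adjusted p = 0.863). The median difference of the tested adaptors was 0.01, and their median absolute difference was 1.72 against 0.74 over all tested genes. Among those higher in STO, Grb10 was at 30.9, 30.5 and 27.2 FPKM against 0.724 and 0.567 in NSCs (4.21, SE 0.08, adjusted p = 4.05e-08). Shc1, the widely expressed SHC adaptor, was at 57.5, 54.6 and 51.3 FPKM against 6.00 and 5.66 (3.02, SE 0.07, adjusted p = 7.14e-08). Shc3, the neuronal SHC adaptor, showed the reverse, with 32.0 and 31.2 FPKM in NSCs and a listed 0 in the 3 STO samples (-5.03, SE 0.05, adjusted p = 5.31e-09). The kinase gene Fyn was at 228 and 251 FPKM in NSCs and at 15.9, 16.1 and 15.9 in STO (-3.82, SE 0.06, adjusted p = 1.74e-08).

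Genes known to respond to GDNF or RET signalling were next examined. Most of them also respond to other receptor tyrosine kinases. EGF and basic FGF were added to the NSC medium only, and the STO medium held 10% fetal bovine serum. The part of the media in these differences was not tested. Of 21 genes, 17 were tested, 7 were higher and 10 lower in STO, where 41.9% of all tested genes were higher and 43.7% lower. The median difference was -1.03, against -0.02 over all tested genes. Mmp14, a membrane-bound matrix protease, was at 197, 196 and 189 FPKM in STO and at 2.33 and 2.57 in NSCs (5.82, SE 0.05, adjusted p = 5.31e-09). Met, the hepatocyte growth factor receptor, was at 20.8, 22.4 and 20.3 FPKM in STO and at 0.865 and 0.628 in NSCs (3.67, SE 0.08, adjusted p = 7.15e-08). Spry4, a feedback inhibitor of receptor tyrosine kinase signalling, was at 42.2 and 41.6 FPKM in NSCs and at 1.69, 1.54 and 1.35 in STO (-4.09, SE 0.07, adjusted p = 2.76e-08). Ccnd2, a D-type cyclin, was at 418 and 403 FPKM in NSCs and at 27.9, 29.5 and 23.7 in STO (-3.88, SE 0.10, adjusted p = 1.36e-07).

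Upstream regulators of Gdnf or Ret, drawn from kidney and neural crest development, were examined last. Of 21 genes, 13 were tested, 9 were higher and 4 lower in STO, against 41.9% higher and 43.7% lower over all tested genes. The median difference was 1.40, against -0.02 over all tested genes. The list joins regulators of Gdnf with regulators of Ret, and it includes factors known to restrict Gdnf in the kidney. Of these, Slit2 (5.89), Foxc2 (2.15) and Foxc1 (0.84) were higher in STO and Robo2 (-1.30) was lower. The median therefore does not measure a direction of regulation. Grem1, a BMP antagonist required for ureteric bud outgrowth, was at 93.3, 90.6 and 96.3 FPKM in STO and at 0 and 0.0354 in NSCs (6.54, SE 0.05, adjusted p = 5.09e-09). Osr1, a transcription factor of the intermediate mesoderm, was at 81.1, 81.3 and 78.9 FPKM in STO and listed at 0 in both NSC samples (6.35, SE 0.05, adjusted p = 4.58e-09). Sox10, a neural crest factor upstream of Ret that also marks the oligodendrocyte lineage, was at 8.66 and 10.2 FPKM in NSCs and at 0.0163, 0 and 0 in STO (-3.37, SE 0.07, adjusted p = 6.21e-08). Sall1, a zinc-finger factor of kidney mesenchyme and neural progenitors, was at 9.16 and 9.15 FPKM in NSCs and listed at 0 in STO (-3.34, SE 0.04, adjusted p = 9.71e-09). The kidney regulators Pax2, Pax8, Six2, Hoxa11 and Hoxd11 and the enteric neuron regulator Phox2a were below the filter in both cell types, as was Bmp4.

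**Figure D4:**
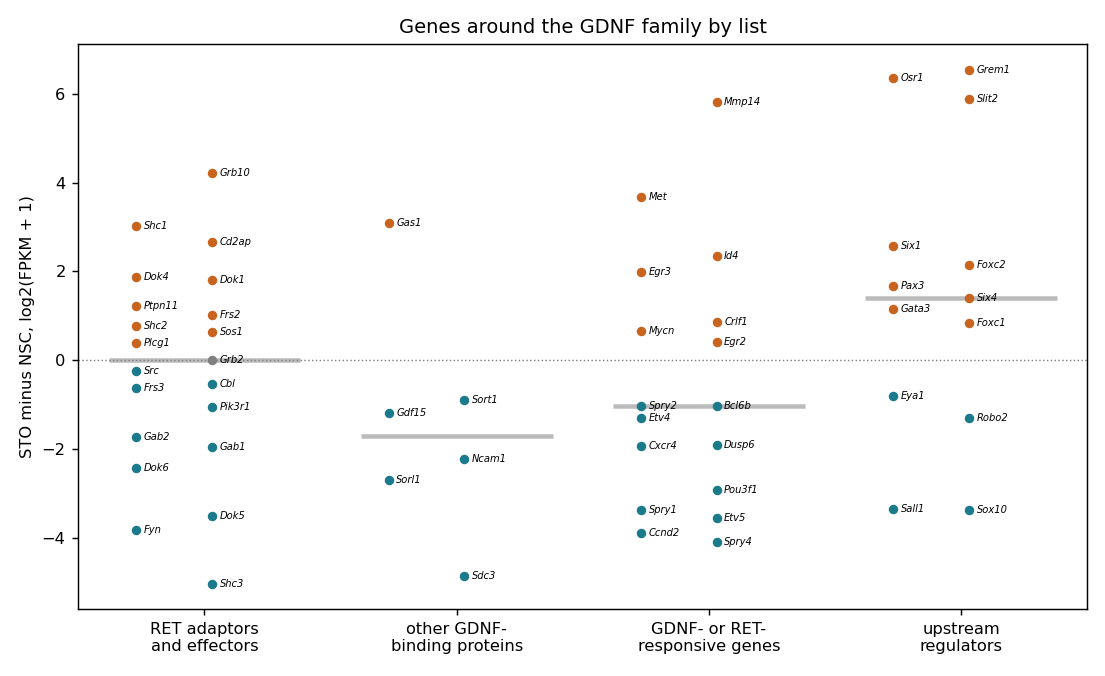
STO minus NSC difference in log2(FPKM + 1) (vertical axis) of each tested gene in 4 lists around the GDNF family, with points orange when higher, blue-green when lower and grey when not called in STO. Grey lines mark list medians, from -1.71 in the list of other GDNF-binding proteins, which includes Gdf15, to 1.40 in the upstream regulators.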

How the data were processed

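Total RNA from 2 NSC and 3 STO samples was prepared with a stranded mRNA kit and sequenced in pairs. The authors trimmed the reads, aligned them to mm9 with HISAT2 and estimated FPKM with Cufflinks 2.2.1 (tools as named in the submitters' processing notes) on UCSC RefSeq transcripts. The deposited FPKM values, with their interval bounds, cover 40201 transcripts per sample, and whether strand was used is not given in the sources used here. FPKM are not counts, and Cufflinks shares fragments between overlapping isoforms, so gene sums are firmer than single transcripts. Fragments behind a value were implied from the upper interval bound, taken as 2 SD of a Poisson count, which is only approximate where isoforms overlap. Failed estimates (0 to 20 transcripts per sample) touched no member.

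Symbols came from a RefSeq table of GRCm38.p6, used for names only, and matched 39946 transcripts (99.4%). FPKM were summed per symbol and sample, genes with a mean of at least 1 FPKM in either group were kept, and log2(FPKM + 1) was tested with limma 3.58.1 in R 4.3.3 (trended variance, Benjamini-Hochberg adjustment over the genes kept, threshold 0.05). On simulated data for this comparison with 12293 genes, 188 of 200 genes changed by 1 on the log2 scale were recovered, with 13 false calls. The simulated noise was normal, at the spread between these samples. Far fewer genes were changed than the 85.6% called in the data. The simulation therefore checks the code and does not show how the calls in the data behave. Members and lists were chosen with earlier results of these data known. Named genes were the 9 members, the 2 largest rises and falls per list among called genes whose groups did not overlap, the 3 nearest genes to each tested member, and markers. Outside that rule, Ncam1, Gdf15, Grb2, Alkbh7, Alkbh1 and Amd1 are named, chosen after their values were seen. The same holds for Slit2, Robo2, Foxc1, Foxc2, Phox2a, Bmp4, Pax2, Pax8, Six2, Hoxa11 and Hoxd11. Alternatives covered pseudocount, filter, scaling, variance trend, replicate number as a block, transcript choice and each replicate left out. Sequences were read from mm9 (chromosome lengths checked against the deposited positions), the GENCODE M1 annotation, the RefSeq promoter table and the study's primer list with Python 3.11.15. For Gfra1, the long transcripts were those with at least 9 exons. Some items are not reported here.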

Additional observations from a re-analysis of the deposited data

How the results depend on the processing

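Of 15 alternative settings for each tested member, Gdnf (2.41 to 5.59), Gfra2 (-4.88 to -2.86) and Gfra4 (-2.45 to -1.09) kept their direction and their call in every one. Gfra1 kept both in 14, and with only the highest transcript of each gene it was -0.03 (adjusted p = 0.835). Fits of each transcript by itself, chosen after seeing the data, gave -0.03 for Gfra1 NM_001285457, -0.75 for Gfra2 NM_001302094 and -0.79 for Gfra2 NM_001302095, none of which passed. These settings by construction drop the transcripts that carry the remainder of the gene. Leaving out each replicate in turn gave 3.02 to 3.11 for Gdnf, -0.64 to -0.60 for Gfra1, -3.25 to -3.13 for Gfra2 and -1.55 to -1.46 for Gfra4. With 1 NSC sample left, that sample is assumed to vary like the STO samples. With the replicate number as a block, Gdnf was 3.06, Gfra1 -0.62, Gfra2 -3.17 and Gfra4 -1.47, and 4994 genes were higher and 5250 lower in STO. No call of a member or list changed under the block. Samples with the same number deviated together only weakly (r = 0.011 and 0.06), so the numbers were not taken as pairs. Over all genes the counts ranged from 4704 to 5919 higher and from 4684 to 6559 lower across the alternatives. A pseudocount of 0.1 kept every call named in the lists but moved some differences by over 1.5 times, to -5.59 for Sorl1, -6.50 for Sox10, -6.53 for Sall1, -8.31 for Shc3 and 9.65 for Osr1, as it did for Gdnf (5.59), Gfra2 (-4.88) and Gfra4 (-2.45). Rescaling to equal totals moved the median difference of all genes from -0.02 to 0.13. Low members (Nrtn, Artn, Ret) rest on at most 46 fragments per sample, so their differences are limited by depth.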
